A study of Mus musculus with 12 samples.

Results

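Dcaf11 knockout mouse embryos marked as arrested were compared with Dcaf11 knockout embryos not so marked, across all genes. The comparison uses the 3 libraries with the word arrest in their title (KO arrest) and the 3 knockout embryo libraries without it (KO embryo), 6 of the 12 libraries of the series. Both groups are of the C57BL/6 strain, carry the Dcaf11 knockout and are labelled as embryo, so the knockout is shared and only the arrest mark in the title separates them. The other libraries are 2 of wild type C57BL/6 embryos (control embryo), whose values are given beside some genes, and 4 of embryonic stem cells. Polyadenylated RNA was amplified by Smart-seq2, which copies whole transcripts into cDNA from a few cells or less. The labels do not give the stage at which embryos were taken or arrested, how arrest was judged, the sex, the deleted part of Dcaf11 or the number of embryos or cells in a library. They also do not state whether the libraries of a group are of separate embryos, so the p-values rest on a spread between libraries that may be technical.

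A mammalian embryo starts from RNA and protein stored in the egg. The maternal RNA is shortened and degraded around the first cleavages while the embryonic genome is switched on, first with a short burst of genes of the 2-cell stage and then with the genes for protein synthesis, energy supply and cell structure that carry cleavage to the blastocyst. The product of Dcaf11 selects targets for the CUL4-DDB1 ubiquitin ligase, and the same family of receptors includes DCAF proteins needed by oocytes and early embryos.

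Expression was deposited as FPKM, a read density per length of transcript and amount of reads, with no counts. The authors' coverage of a gene at 1 FPKM, a measure of relative depth, was 0.373 to 0.659 in the KO arrest libraries and 0.585 to 1.32 in the KO embryo libraries, and 9060 to 9877 and 8535 to 9629 genes reached 1 FPKM. The KO arrest libraries were thus shallower on average, with overlapping ranges, and the number of reads is unknown. Genes above 0 FPKM numbered 11663 to 12089 in KO arrest and 13293 to 16003 in KO embryo, without overlap, so a 0 in KO arrest may be a gene undetected. On the first principal component of log2(FPKM + 1), which held 52.5% of the variance of the 6 libraries, the groups separated. Across genes, which are not independent replicates, Pearson correlations of log2(FPKM + 1) were 0.859 to 0.896 within KO arrest, 0.863 to 0.898 within KO embryo and 0.682 to 0.781 between them.

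Dcaf11 itself (mm9 chromosome 14, 56178866 to 56188902) stood at 4.43, 0.422 and 6.02 FPKM in the KO arrest libraries and 3.99, 2.84 and 0.184 in the KO embryo libraries. The groups overlapped, the difference was 0.42 ± 0.77 (log2 difference ± SE here and throughout, KO arrest minus KO embryo on the log2(FPKM + 1) scale), and the adjusted p was 0.746. Since both groups are knockouts and the value covers the whole gene, it does not check the labels. Of the early embryo markers Dppa3, which encodes a maternal chromatin protein that protects DNA methylation, was at 21963, 30499 and 25965 FPKM in KO arrest and 12074, 7278 and 14555 in KO embryo. Dppa5a was at 1322, 1818 and 1833 and 2986, 1678 and 2853, the zona pellucida gene Zp3 at 12.96, 23.1 and 17.6 and 39.5, 26.99 and 23.01, and Ooep at 6.69, 10.9 and 6.77 and 6.40, 8.52 and 14.9. All 6 libraries therefore held egg and embryo transcripts, and Pou5f1 was low in all of them (6.15, 5.76 and 4.70 against 2.06, 1.40 and 1.22 FPKM).

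The KO embryo libraries also held transcripts known from blood and connective tissue cells, and the KO arrest libraries held few or none. S100a9, whose calcium-binding product is abundant in neutrophils, was listed at 0, 0 and 0 FPKM in KO arrest and at 157, 159 and 245 in KO embryo, with 38.1 and 108 in the control embryos. It had the lowest log2 difference of all genes tested, −7.52 ± 0.38 (adjusted p = 6.14e-05). The neutrophil genes S100a8 (48.8, 39.8 and 53.3 FPKM) and Ngp (20.2, 14.98 and 27.8) and the lysozyme gene Lyz2 (26.9, 23.8 and 35.9) were likewise listed at 0 in each KO arrest library.

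Over a list of 9 leukocyte markers the summed FPKM was 20.4, 0 and 11.6 in KO arrest and 261, 239 and 372 in KO embryo. Of the 6 markers tested 4 were lower and none was higher, and the general leukocyte marker Ptprc was below the filter. These 4 were listed at 0 in KO arrest, so the sums there came from other markers of the list. The log2 differences of the markers tested reached 1.20 in the other direction, and without KO arrest 2 the count of higher markers was 1. Over 8 fibroblast markers the sums were 2.90, 1.09 and 0.0513 and 66.4, 59.4 and 93.2, and all 6 markers tested were lower, among them the collagen gene Col1a2 (22.9, 21 and 35.5 FPKM in KO embryo, listed at 0 in KO arrest), Col1a1 and Lum. Red cell markers summed to 10.1, 0.794 and 0.437 and 25.3, 10.9 and 28.5, with Hbb-b2 lower (listed at 0 against 13.7, 9.90 and 19.7). Cumulus and granulosa markers were near 0 in both groups, at most 2.82 and 7.55 summed FPKM over 12 genes. The bone genes Bglap (9.74, 11.6 and 13.5), Ibsp (6.45, 3.77 and 7.96) and Mmp13 (7.72, 7.47 and 11.8), named after their values were seen, were also listed at 0 in each KO arrest library and called lower.

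These transcripts were a small part of the RNA. The leukocyte markers made up 0.0664, 0.0665 and 0.0945% of the FPKM of the KO embryo libraries and the fibroblast markers 0.0169, 0.0165 and 0.0237%. All 3 KO embryo libraries held them at like levels and both control embryos held them too, so leaving out a library does not separate them from the group, and their part in the lower genes was not tested. In bulk libraries fewer cells of a type and less RNA of it per cell cannot be told apart. Both Xist, the RNA of the inactive X chromosome, and the Y-linked Eif2s3y were present in each KO embryo library, at 5.52, 7.28 and 3.67 and 2.78, 8.86 and 2.92 FPKM. In KO arrest Xist was at 0, 0.143 and 0.231 and Eif2s3y was listed at 0 throughout.

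**Figure D1:**
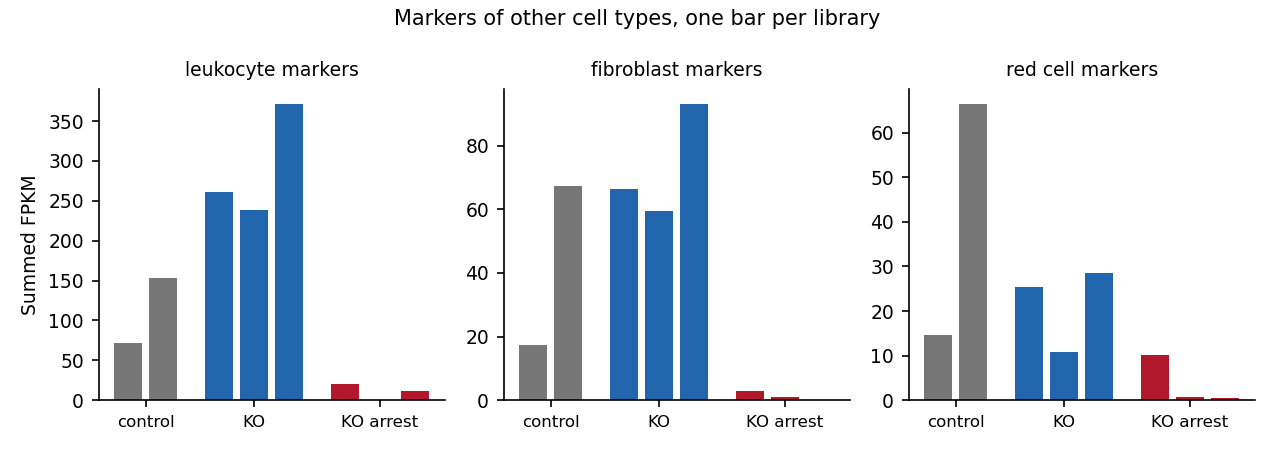
Summed FPKM (linear axis from 0) of markers of leukocytes (9 genes), fibroblasts (8 genes) and red cells, 1 bar per library, in control embryos (grey), KO embryo (blue) and KO arrest (red). The KO embryo bars for leukocyte markers stand between 239 and 372 and the KO arrest bars between 0 and 20.4.

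Arrested and non-arrested knockout embryos differed in 2030 of 11007 genes tested (18.4%; limma, Benjamini-Hochberg adjusted p under 0.05), 1175 higher in KO arrest (10.7% of genes tested) and 855 lower (7.77%). Here a gene is called higher, lower or changed only if it passed that test. Shares of list members given below are to be read beside the 10.7% higher and 7.77% lower of all genes tested. In 2029 of the 2030 the FPKM values of the groups did not overlap, the exception being Ranbp1, against 4251 of all genes tested (38.6%). The median log2 difference was 2.10 among higher genes, −2.05 among lower genes and 0.10 over all genes tested. The called genes were a large part of the RNA: the higher genes held 46.1%, 52.1% and 53.2% of FPKM in the KO arrest libraries and 21.6%, 16.5% and 21.8% in the KO embryo libraries, and the lower genes held 5.23%, 3.40% and 2.72% against 21.8%, 27.5% and 22.5%. Since the genes were called from these same values, the shares describe the size of the change and are no further test.

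The higher genes had shorter transcripts, with a median of 1098 bases against 2464 for lower genes and 1955 for all genes tested. Among the shortest 25% of genes 21.3% were higher and 5.61% lower, and among the longest 25% 2.75% were higher and 10.8% lower. The deposited TPM values, which give each library the same sum, moved the median of all genes by −0.36, and with them 754 genes were higher and 1359 lower, 35.7% of calls higher against 57.9% with FPKM. No call with FPKM changed sign with TPM, and 1608 calls were shared. The direction split therefore depends on the scaling, whereas the genes described below were called with both unless stated. The count of calls was 1119 without KO arrest 2, 1213 without KO arrest 3, and 1201, 1277 and 1239 without KO embryo 1, 2 and 3.

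**Figure D2:**
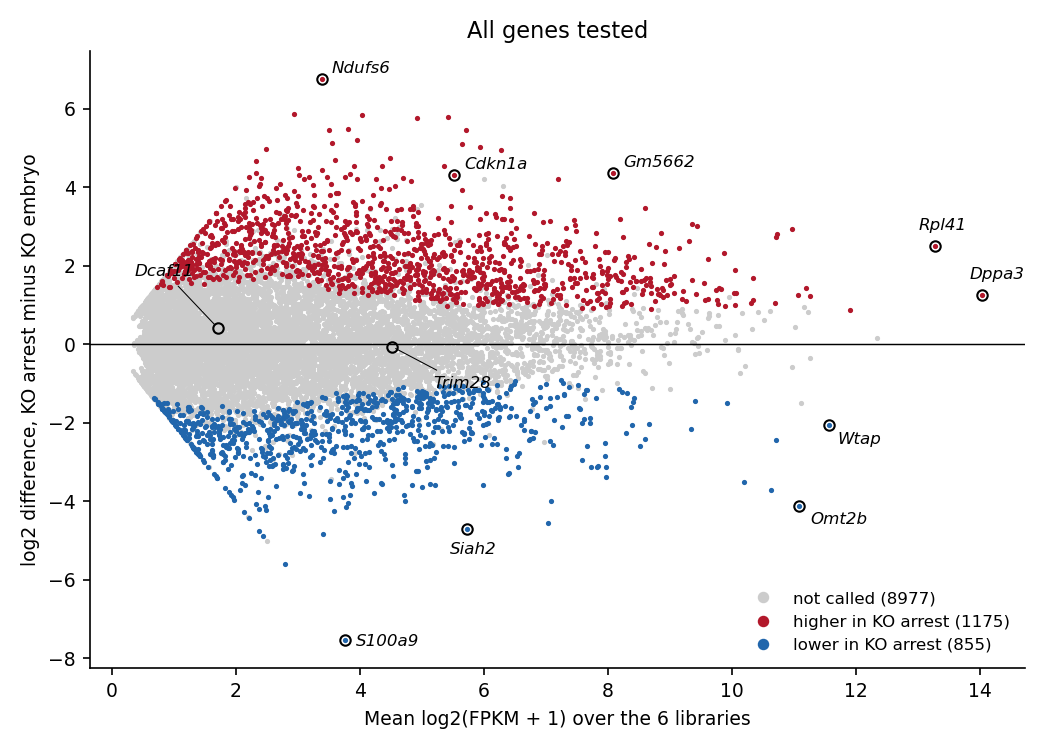
Each point is 1 of 11007 genes tested, with the mean log2(FPKM + 1) of the 6 libraries on the x axis and the log2 difference KO arrest minus KO embryo on the y axis. The 1175 genes higher in KO arrest are red, the 855 lower genes blue, the rest grey, and 11 genes named in the text are circled; abundant genes of both directions, such as Rpl41 and Omt2b, stand far from 0.

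Transcripts stored in the egg were among the most abundant lower genes. Of 61 oocyte genes tested, from a list of 67, 24 were lower in KO arrest (39.3%) and 3 were higher (4.92%), with a median log2 difference of −1.37. Without KO embryo 1 the count of lower genes was 14, and it was 15 without KO embryo 3, while without KO arrest 2, KO arrest 3 or KO embryo 2 none was higher. In gene families transcribed in growing oocytes, the Omt2, Oog, Oas1 and Tcl1 families, 14 of 21 members were lower (66.7%) and none higher (median −2.12). Omt2b (mm9 chromosome 9, 78175837 to 78177427) was at 648, 429 and 514 FPKM in KO arrest, 10152, 7079 and 10259.6 in KO embryo and 20739 and 27071 in the control embryos, a log2 difference of −4.11 ± 0.28 (adjusted p = 2.30e-04). Its neighbour in the family, Omt2a, was at 683, 335 and 371 against 6356, 4404 and 6708 (−3.70 ± 0.33), and the oogenesin gene Oog3 at 67.5, 74.7 and 87.8 against 1031, 536 and 935 (−3.38 ± 0.31, adjusted p = 0.00106). In each of these genes every KO arrest library lay below every KO embryo library, and these families together summed to 1787, 1031 and 1398 FPKM against 19353, 13472 and 19558. Copies of these genes are near-identical and may share reads, so the split among members is uncertain.

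Secreted oocyte factors were lower too. Bmp15, an oocyte ligand of the TGF-beta family, was at 53.3, 11.5 and 15.3 FPKM against 91.6, 86.6 and 96.3 (−2.05 ± 0.51), its partner Gdf9 at 21.3, 21.2 and 6.92 against 82.6, 36.5 and 65.7 (−1.91 ± 0.49) and Oosp1 at 27.6, 6.54 and 1.81 against 38.7, 57.8 and 45.5 (−2.50 ± 0.72). Zp3, the other member of this group tested, was not called. Bmp15 and Oosp1 lost their calls without any 1 of 5 of the 6 libraries, KO arrest 1 being the exception, and Gdf9 without KO arrest 3, KO embryo 1 or KO embryo 3. Among regulators of maternal RNA, Spin1, which encodes a histone-binding protein abundant in eggs, was at 750.5, 255 and 217 FPKM against 2893, 4693 and 4516 (−3.50 ± 0.45, adjusted p = 0.00201). Btg4, whose product brings the CCR4-NOT deadenylase to maternal mRNAs, was at 141, 48.7 and 33.2 against 210.0, 194 and 242 (−1.79 ± 0.47). Its call was lost without any 1 library other than KO arrest 1, and no other of the 9 members tested in this group was called.

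The subcortical maternal complex, a protein assembly under the membrane of eggs and blastomeres, held few called genes. Of its 16 genes tested, NLRP family members included, Zbed3 (103, 74.95 and 70.3 against 626, 442 and 448 FPKM, −2.60 ± 0.28) and Nlrp9c (8.95, 3.999 and 11.05 against 34.1, 29.7 and 42.8, −2.10 ± 0.43) were lower and Khdc3 was higher (14.5, 12.9 and 26.4 against 3.71, 1.16 and 8.39, 1.98 ± 0.60, adjusted p = 0.0467, not called with TPM). These were 12.5% lower and 6.25% higher, against 7.77% and 10.7% of all genes tested. The summed FPKM of the group was nevertheless lower, at 221, 163 and 149 against 786, 541 and 609, without overlap. The homeobox genes of the oocyte split as well. Obox5 (77.9, 26.5 and 45.5 against 252, 239 and 247, −2.41 ± 0.38), Obox1 (−1.92) and the oocyte factor Lhx8 (−2.31) were lower, while Obox6 was higher at 1030.2, 1523 and 1966 FPKM against 605, 382 and 658 (1.45 ± 0.33, adjusted p = 0.0165). Dppa3, the most abundant transcript of the KO arrest libraries, was higher there by 1.26 ± 0.33 (adjusted p = 0.0284) but was not called with TPM. The summed FPKM of the whole oocyte list, 26544, 34021 and 30243 against 37229, 27514 and 41141, overlapped between the groups although its median member was lower, and in KO arrest most of that sum was Dppa3. Total FPKM was 480887, 520552 and 557017 in KO arrest and 392725, 359040 and 393120 in KO embryo. As a share of that total the list held 5.52%, 6.54% and 5.43% against 9.48%, 7.66% and 10.5%, without overlap.

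The promoters of the oocyte list, its members called or not, differed in sequence from those of all genes tested. In RefSeq promoter windows of build GRCm38.p6, matched by symbol for 54 of the 67 oocyte genes, the letters TATAA lay between 45 and 16 bases before the start, on the gene's strand, in 18.5%, against 3.20% of 8106 matched genes tested and 3.89% of all 32851 windows in the table. The windows of 300 bases held a median of 3 CG dinucleotides in oocyte genes and 22 in all genes tested. Of 22 matched oocyte genes that were lower, 6 held TATAA there. The windows of 5 of these genes, the 5 with the smallest p, are printed from 45 bases before to 15 bases after the start, with TATAA in capitals, as examples of lower oocyte genes that hold it; Omt2b and Omt2a, which had the largest falls in FPKM, are not among them.
Oog3, chr4:144162637-144162696, minus strand: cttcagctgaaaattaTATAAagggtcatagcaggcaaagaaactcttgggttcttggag
Zbed3, chr13:95323560-95323619, plus strand: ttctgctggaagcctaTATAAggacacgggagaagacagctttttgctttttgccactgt
Spin1, chr13:51132752-51132811, plus strand: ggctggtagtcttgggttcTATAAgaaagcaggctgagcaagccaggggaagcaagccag
C86187, chr7:46975897-46975956, minus strand: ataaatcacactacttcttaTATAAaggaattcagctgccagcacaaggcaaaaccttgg
Obox5, chr7:15750325-15750384, plus strand: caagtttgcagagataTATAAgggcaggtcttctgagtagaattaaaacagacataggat
A match is a description of the sequence, and it does not show that the site was used in these embryos.

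Other abundant transcripts outside the oocyte list were lower as well. Siah2 (mm9 chromosome 3, 58478871 to 58496310), which encodes a ubiquitin ligase, was at 12.1, 10.2 and 6.66 FPKM in KO arrest, 307, 229 and 272 in KO embryo and 559 and 501 in the control embryos (−4.69 ± 0.32, adjusted p = 2.30e-04). The KO arrest values lay far below all 5 other embryo values. Per3, a circadian clock gene, was at 5.23, 1.28 and 0.468 against 33.5, 70.2 and 55.8 (−4.24 ± 0.58), Ccng2, an atypical cyclin gene, at 0.484, 0.199 and 0.0201 against 28.02, 30.6 and 11.1 (−4.19 ± 0.54), Eps8, an actin regulator gene, at 0.516, 0.272 and 0.167 against 12.5, 30.1 and 32.8 (−4.21 ± 0.52) and Tbpl1, which encodes a TATA-binding protein relative, at 4.16, 4.24 and 0.278 against 63.2, 57.1 and 50.7 (−4.15 ± 0.57). The most abundant lower genes included Wtap, a subunit of the RNA methylation complex (2279.6, 1671 and 854 against 4287, 8920.2 and 6105, −2.05 ± 0.41), and Cbx3, a heterochromatin protein (1200.1, 674 and 451 against 3153, 5238 and 3526, −2.44 ± 0.38). The others were Ccdc6 (−2.15), Myef2 (−1.49) and the RNA exosome factor Mphosph6 (−1.45). Myef2 lost its call without any 1 library other than KO arrest 1. Among genes with systematic names 0610040F04Rik had the largest fall (0.744, 3.45 and 0 against 41.8, 71.8 and 55.99, −4.83 ± 0.58).

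Genes of the mRNA decay machinery that removes maternal transcripts were lower in 5 (17.2%) and higher in 1 (3.45%) of 29 tested (median −0.72). Without KO arrest 2 or KO embryo 1 the count of lower genes was 2, without KO embryo 2 or 3 it was 3, and the median was −0.34 without KO embryo 2. The deadenylase subunit Pan3 was at 87.4, 63.6 and 31.8 FPKM against 264, 451 and 258 (−2.46 ± 0.40) and the decapping enzyme Dcp2 at 5.83, 3.89 and 5.38 against 20.5, 19.7 and 17.9 (−1.77 ± 0.39). The P-body protein gene Lsm14a (−1.70) and the RNA-binding repressor gene Pum2 (−1.16) were lower, and the decapping enhancer Edc3 was higher at a low level (2.90, 1.87 and 5.48 against 0.212, 0 and 0.410). The call of Pum2 was lost without any 1 library other than KO arrest 1, and that of Edc3 without any other than KO arrest 2. Of the 14 deadenylase genes 1 was lower (7.14%, against 7.77% of all genes tested) and none was higher (against 10.7%). Their log2 differences ran from −2.46 to 0.99. Of 16 genes for m6A RNA methylation 4 were lower (25%) and 1 higher (6.25%). Wtap, the reader Ythdf2 (267, 204 and 153 against 448, 849.6 and 473, −1.47 ± 0.33) and Igf2bp3 (−2.01 ± 0.35) fell and the methyltransferase partner Mettl14 rose (10.1, 20.8 and 12.03 against 1.82, 0.114 and 1.36, 2.91 ± 0.55).

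**Figure D3:**
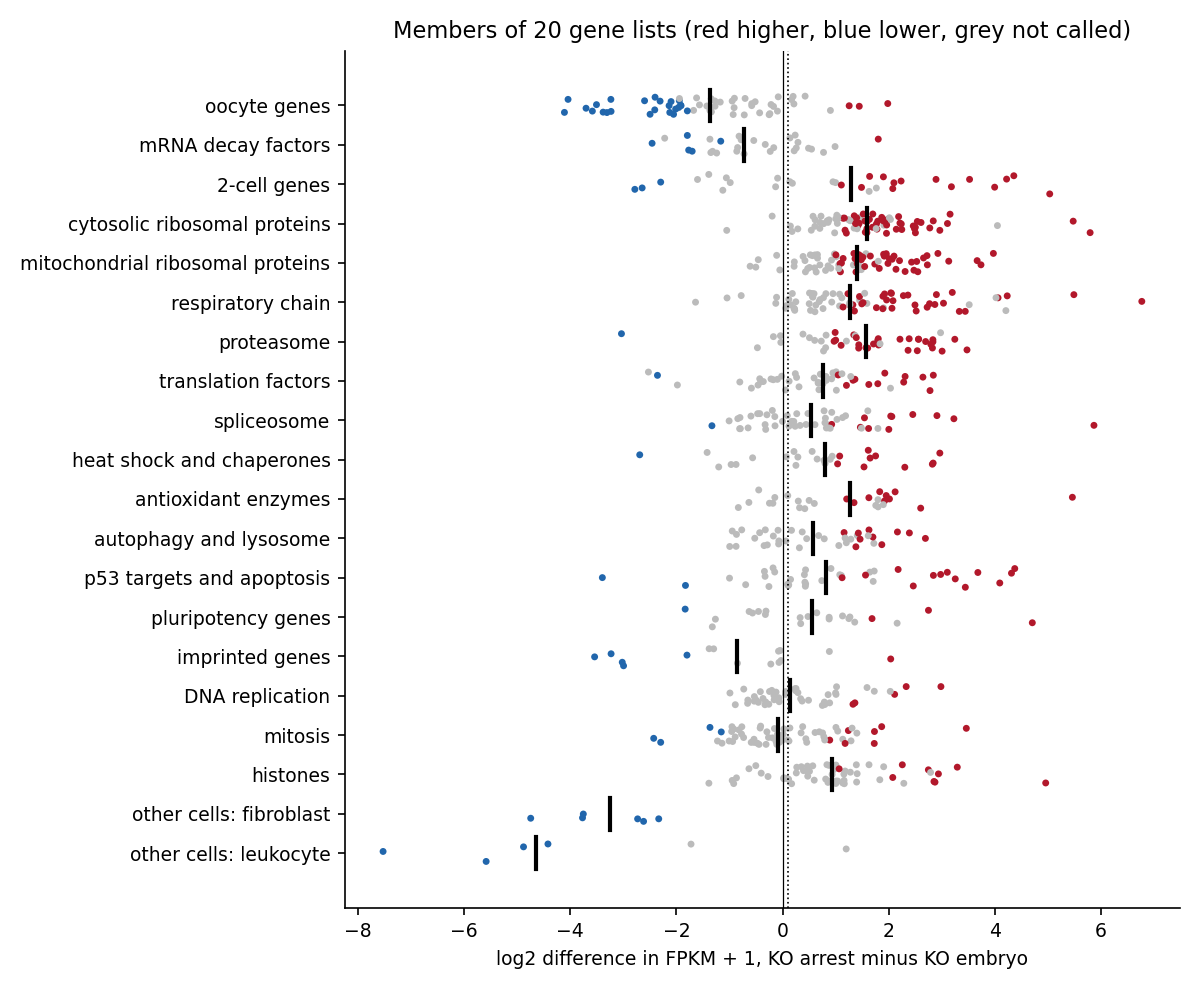
Each point is a gene of 20 lists, placed by its log2 difference (KO arrest minus KO embryo); red points were higher, blue lower and grey not called, thick lines mark list medians and the dotted line the median of all genes tested (0.10). Medians lie at −1.37 for oocyte genes and at 1.27 to 1.59 for ribosomal, respiratory chain and proteasome genes.

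The genes switched on at the 2-cell stage were more often higher than lower but did not move as a block. Of 30 tested from a list of 42, 14 were higher in KO arrest (46.7%, against 10.7% of all genes tested) and 3 lower (10%, against 7.77%), with a median of 1.30. The higher members included a cluster of genes related to the translation initiation factor Eif1a. Gm5662 was at 2468, 1536 and 483 FPKM in KO arrest, 79.9, 58.8 and 43.1 in KO embryo and 269 and 499 in the control embryos (4.36 ± 0.54, adjusted p = 0.00177), Gm2016 at 1183, 939 and 227 against 45.95, 26.7 and 29.1 (4.22 ± 0.56) and BB287469 at 797, 367 and 146 against 42.1, 0 and 27.5 (5.03 ± 1.24). The KO arrest libraries did not overlap the KO embryo libraries but spread widely among themselves. Eif1ax, the X-linked gene of that factor, was also higher (339.7, 311 and 325 against 71.9, 55.2 and 68.5, 2.31 ± 0.25), and near-identical copies of it can share reads. Gm8994 was higher by 2.89 ± 0.46 and Gm428 lower (1.29, 0 and 0 against 5.45, 9.37 and 10.1, −2.78 ± 0.55). Summed over the 39 list members found, KO arrest stood at 8670.2, 6225 and 2905 FPKM and KO embryo at 1630.0, 1429 and 1495. Without KO arrest 2 the count of higher members was 7.

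The Zscan4 family, telomere-associated zinc finger genes of the 2-cell stage, was on the other side. Zscan4a was lower in KO arrest (4.41, 2.49 and 1.03 against 23.6, 32.4 and 10.4 FPKM, −2.64 ± 0.57, adjusted p = 0.0138), as was Zscan4d (7.79, 0.723 and 4.14 against 20.5, 19.9 and 19.4, −2.30 ± 0.60, adjusted p = 0.0275). The other members were not called: Zscan4c at 5.57, 7.05 and 0.243 against 14.1, 2.28 and 10.98 (−1.06 ± 0.84), Zscan4e at 0.0858, 0 and 0 against 2.19, 0 and 5.11 (−1.39 ± 0.64) and Zscan4f at 0, 5.07 and 0 against 25.5, 3.89 and 0.310 (−1.60 ± 1.09). Zscan4b, listed at 0, 0 and 0 against 1.46, 0.464 and 0.942, was below the filter. The family summed to 17.8, 15.3 and 5.41 FPKM in KO arrest, 87.3, 58.99 and 47.2 in KO embryo and 374 and 990.2 in the control embryos, and the members are near-identical, so reads may be split among them. Zscan4d lost its call without any 1 of 5 of the 6 libraries, KO arrest 1 being the exception, and Zscan4a without KO embryo 1 or 2. Dppa2, a chromatin factor upstream of these genes, was higher in KO arrest at 599.7, 725 and 761 against 263, 205 and 276 (1.49 ± 0.25, adjusted p = 0.00563).

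Ribosomal protein genes had the most higher members of any list by count. By share 60% were higher, against 64.4% of proteasome genes and 10.7% of all genes tested. Of 80 genes for cytosolic ribosomal proteins, all tested, 48 were higher in KO arrest and none lower, 33 of 48 of the large subunit and 15 of 32 of the small subunit, with a median of 1.59. Rpl41 (mm9 chromosome 10, 127985166 to 127986224) was at 19204, 27133 and 25223 FPKM against 5112, 3074 and 4599.6 (2.50 ± 0.30, adjusted p = 0.00169), with 972 and 1862 in the control embryos. Rplp2 of the ribosome stalk was at 311, 395 and 484 against 68.6, 55.9 and 76.02 (2.54 ± 0.28), Rpl7 at 299, 443 and 518 against 72.3, 53.6 and 75.05 (2.61 ± 0.30) and Rps15 at 653, 632 and 852 against 244, 182 and 228 (1.70 ± 0.26). Rps24 (1.59) and Rps20 (2.25) were higher as well, without overlap between the groups. Rps4x (204, 461 and 452 against 0, 7.84 and 54.2, 5.47 ± 1.15) and Rpl30 (345, 292 and 318 against 188, 0 and 0, 5.79 ± 1.67) were among the 12 largest rises, but the 0 values of such constitutive genes can be failed estimates, and Rpl30 was not called with TPM. Summed over the list, KO arrest stood at 37208, 57219 and 56849 FPKM, KO embryo at 14259.6, 9694 and 14516 and the control embryos at 3021 and 4039. With TPM 31 members were higher, without KO arrest 2 the count was 24, and after removal of the trend with length it was 32. Many of these genes have processed copies elsewhere in the genome that may share reads.

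In vertebrates ribosomal protein mRNAs begin with a run of pyrimidines that ties their translation to growth signals. The letters CTTTC lay between 10 bases before and 15 bases after the RefSeq start, on the gene's strand, in 25.4% of 59 matched ribosomal protein genes, 3.49% of matched genes tested and 3.10% of all windows. Of 35 matched members that were higher, 7 held it. The 5 with the smallest p are printed over the same 60 bases, with the first CTTTC of that stretch in capitals, as examples of higher members that hold it; Rpl41, the most abundant member, is not among them.
Rplp2, chr7:141447606-141447665, plus strand: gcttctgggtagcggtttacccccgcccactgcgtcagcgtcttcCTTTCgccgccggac
Rpl15, chr14:18270972-18271031, minus strand: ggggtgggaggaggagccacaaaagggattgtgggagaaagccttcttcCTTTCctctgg
Rpl7a, chr2:26910762-26910821, plus strand: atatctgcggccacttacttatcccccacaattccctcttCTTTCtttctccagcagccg
Rps27, chr3:90213634-90213693, minus strand: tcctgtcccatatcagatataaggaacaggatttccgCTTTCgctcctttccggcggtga
Rpl12, chr2:32961667-32961726, plus strand: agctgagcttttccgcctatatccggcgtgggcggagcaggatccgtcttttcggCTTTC
The motif chosen is known for this class of genes, and its presence says nothing about transcription in these embryos.

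Translation factors and the transcription and splicing machinery held higher and lower genes. Of 47 translation factor genes 12 were higher (25.5%) and 1 lower (2.13%), with a median of 0.76. With TPM 9 were higher and 4 lower (median 0.32), and without KO arrest 3 the count of higher genes was 7. The elongation factor genes Eef1a1 (371, 657 and 729.8 against 175, 156 and 153 FPKM, 1.79 ± 0.30) and Eef1b2 (2.28 ± 0.38) and the initiation factor genes Eif3i (2.84) and Eif3k (2.78) were higher. Eef1g (1.93) was not called with TPM, and Eif2b4, a subunit of the exchange factor for eIF2, was lower (6.18, 7.87 and 0.961 against 29.8, 17.98 and 27.6, −2.36 ± 0.60). Of 52 spliceosome genes 11 were higher (21.2%) and 1 lower (1.92%), against 7 and 5 with TPM. Snrpf, a core Sm protein gene, was at 37.7, 57.2 and 87.2 FPKM in KO arrest and listed at 0 in all KO embryo and control embryo libraries, and Snrpb was at 115, 113 and 123 against 17.4, 10.3 and 8.58 (3.23 ± 0.34). Srsf7 (2.45) and Srsf3 (2.06) were higher and Srsf10 lower (−1.33). Of 12 RNA polymerase II subunit genes 4 were higher (33.3%), among them Polr2h (1.40 ± 0.24), while Polr2l and Polr2k were called only with FPKM. Ribosomal RNA processing and RNA polymerase I showed 3 higher (9.09%) and 2 lower (6.06%) of 33, near the shares over all genes tested (10.7% and 7.77%). The median was 0.15, and −0.27 with TPM, where 1 was higher and 6 lower. The nucleolar chaperone gene Npm1 was higher (1376, 2782 and 2375 against 481, 282 and 530.5, 2.32 ± 0.35), whereas the polymerase I initiation factor gene Rrn3 was lower (276, 199 and 124 against 495, 785 and 489, −1.60 ± 0.35) and the rRNA methyltransferase gene Nop2 too (−1.36).

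**Figure D4:**
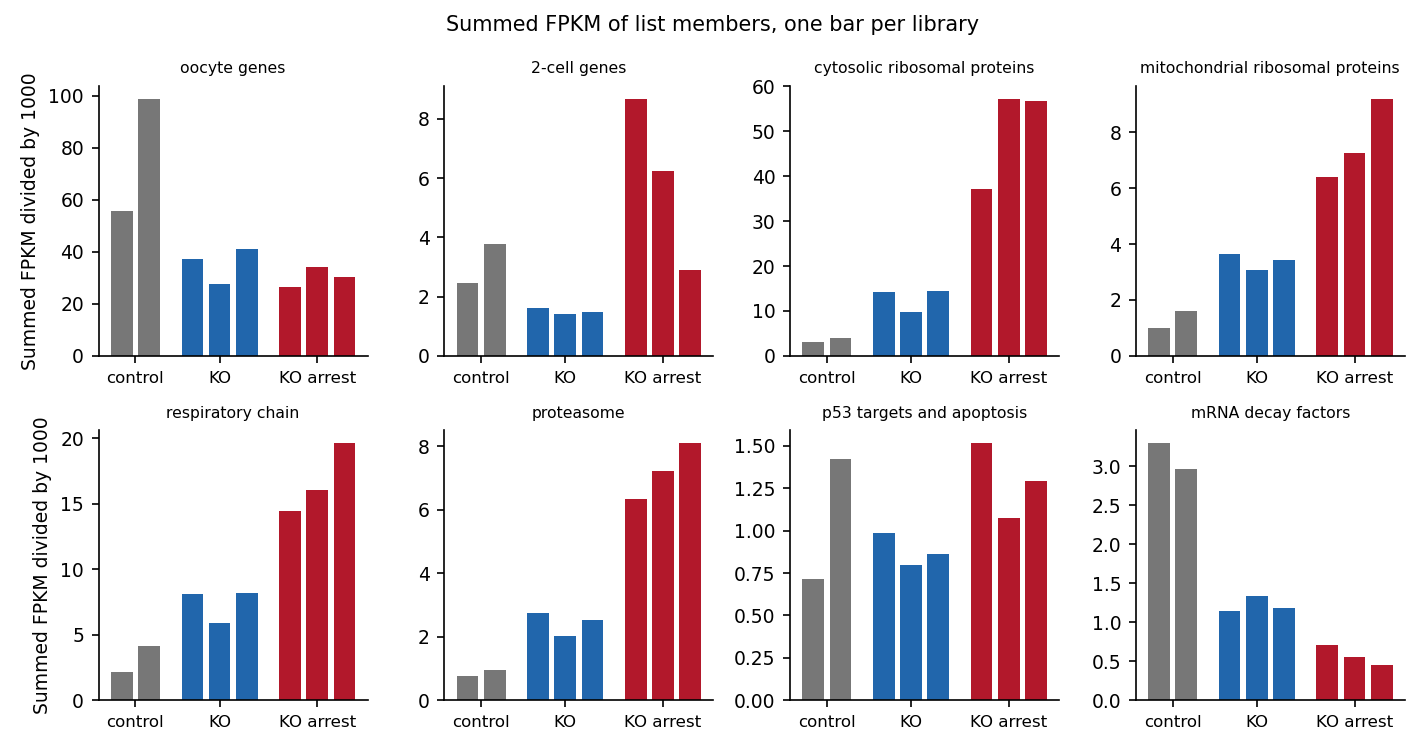
Summed FPKM divided by 1000 (linear axes from 0, a separate scale per panel) of the members of 8 lists, 1 bar per library, in control embryos (grey), KO embryo (blue) and KO arrest (red). The KO arrest bars stand above all others for ribosomal, respiratory chain and proteasome genes, below all others for mRNA decay factors, and overlap KO embryo for oocyte genes. The sums are not divided by the total FPKM of a library, which was higher in each KO arrest library.

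Nuclear genes of the mitochondrion were higher alongside. Of 76 mitochondrial ribosomal protein genes tested 42 were higher (55.3%) and none lower (median 1.39). Mrps18a was at 108, 135 and 152 FPKM against 27.1, 8.95 and 11.2 (3.13 ± 0.42), Mrpl14 at 81.2, 70.97 and 117 against 6.66, 21.8 and 14.9 (2.66 ± 0.44) and Mrpl27 at 198, 263 and 225 against 69.9, 53.4 and 56.3 (1.92 ± 0.27). Mrpl28 (2.55), Mrps18b (2.43) and Mrps21 (2.06) were also among the higher genes. With TPM 22 members were higher and 2 lower, without KO arrest 3 the count was 20, and with the control embryos in the same fit it was 15. Removal of the trend with length left 27 higher.

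Of 76 respiratory chain genes tested 33 were higher (43.4%) and none lower (median 1.27): 18 of 36 in complex I, 1 of 4 in complex II, 5 of 10 in complex III with cytochrome c, 4 of 11 in complex IV and 5 of 15 in the ATP synthase. Ndufs6 (mm9 chromosome 13, 73457324 to 73465930), a complex I subunit gene, was at 105, 85.9 and 139 FPKM in KO arrest and listed at 0 in each KO embryo and control embryo library, the largest log2 difference of all genes tested (6.77 ± 0.40, adjusted p = 1.36e-04). A value of 0 for a gene that cells need can be a failed estimate, and the size of the difference then depends on the pseudocount of 1. Ndufs5 was at 196, 223 and 275 against 23.6, 14.9 and 29.7 (3.33 ± 0.33) and Ndufa4 at 660.0, 307 and 583 against 90.9, 56.7 and 53.2 (2.90 ± 0.36). Complex III was represented by Uqcrh (543, 579 and 617 against 106, 133 and 99.1, 2.36 ± 0.25), Uqcrb (2.05) and Uqcrq (1.45). In complex IV Cox4i1 was at 826, 1030.0 and 1313 against 284, 108 and 201 (2.49 ± 0.37), Cox6a1 was higher by 1.92, and Cox8a (1.14) was called only with FPKM. The ATP synthase genes Atp5d (112, 80.7 and 151 against 3.79, 2.77 and 10.7, 4.23 ± 0.48), Atp5f1 (1.89) and Atp5c1 (1.89) were higher, and Sdhd of complex II (2.52) was called only with FPKM. With TPM 24 members were higher and 2 lower, and without KO arrest 2 the count was 22. Removal of the trend with length left 22 higher and 2 lower.

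Mitochondrial import and assembly genes were higher in 12 (32.4%) and lower in 1 (2.70%) of 37 (median 0.75). Cox19, an assembly factor gene for complex IV, had one of the largest rises (74.5, 109 and 227 against 0, 0.475 and 5.81 FPKM, 5.84 ± 0.72). The import genes Tomm7 (2.15 ± 0.33), Timm8a1 (1.64 ± 0.26) and Timm17b (3.11 ± 0.56) and the chaperonin gene Hspe1 (277, 174 and 159.8 against 28.2, 24.6 and 44.4, 2.62 ± 0.34) were higher, and Phb was too (1.97). Timm8b, a paralogue of Timm8a1, was lower (215, 176 and 227 against 413, 494 and 565, −1.24 ± 0.25). Without KO arrest 3 the count of higher members was 7.

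The proteasome, which degrades proteins tagged with ubiquitin, rose in most of its core subunits. Of 45 genes tested 29 were higher (64.4%) and 1 was lower (2.22%), with a median of 1.57 and with 11 of 14 genes of the catalytic core and 13 of 21 of the regulatory particle higher. The catalytic subunit gene Psmb6 was at 283, 353 and 227 FPKM against 21.97, 17.9 and 37.4 (3.47 ± 0.34, adjusted p = 0.00131), Psma1 at 154, 200.2 and 180.3 against 23.7, 22.4 and 26.1 (2.83 ± 0.27) and Psmb2 at 553, 593 and 691 against 223, 152 and 236 (1.60 ± 0.27). Of the regulatory particle Psmd6 was at 177, 138 and 160.0 against 30.2, 17.3 and 34.6 (2.54 ± 0.33), Shfm1 was higher by 2.56 and Psmd9 by 2.39. The assembly chaperone genes Psmg2 (3.25), Psmg4 (2.83) and Pomp (1.39) were higher. The lower gene was Psme4, which encodes an alternative activator of the core known from germ cells, at 5.67, 3.97 and 5.33 against 51.8, 61.5 and 33.8 (−3.03 ± 0.38, adjusted p = 0.00191). With the control embryos in the same fit 14 members were higher, and without KO arrest 3 there were 20. Removal of the trend with length left 25 higher. The ubiquitin gene Ubb was at 4052, 2402 and 5401 against 1908, 1131 and 1861 (1.24 ± 0.36) and was called only with FPKM.

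Stress and protective genes were partly higher. Of 26 antioxidant genes 10 were higher (38.5%) and none lower (median 1.28), led by the thioredoxin gene Txn1 (137, 48.02 and 61.8 against 0, 0.901 and 1.63 FPKM, 5.46 ± 0.54, adjusted p = 0.00131), Glrx3 (2.60 ± 0.32) and the peroxiredoxin gene Prdx1 (366, 214 and 318 against 73.6, 64.5 and 61.8, 2.12 ± 0.29). Without KO arrest 3 the count of higher antioxidant genes was 6, and with the control embryos in the same fit it was 5. Of 26 heat shock and chaperone genes 10 were higher (38.5%) and 1 lower (3.85%), against 7 and 4 with TPM. Hspa8, the constitutive HSP70, was at 750.4, 1293 and 1959 against 193, 123 and 216 (2.84 ± 0.38, adjusted p = 0.00234), Hspb1 at 241, 219 and 309 against 58.9, 14.1 and 37.4 (2.96 ± 0.47) and Hsp90aa1 at 639, 889 and 1162 against 318, 280.3 and 238 (1.65 ± 0.29). The heat shock transcription factor gene Hsf1, a maternal gene, was lower (1.93, 2.77 and 2.55 against 30.1, 13.4 and 22.6, −2.69 ± 0.46). The folding genes Pfdn1 (2.82), Cct8 (2.30) and Vbp1 (1.53) were higher. Of 22 genes of the integrated stress and unfolded protein responses 3 were higher, the amino acid stress gene Asns (2.62 ± 0.65), Nupr1 (2.55 ± 0.59) and, with FPKM only, Ddit3 (2.65 ± 0.69), and Pdia4 was lower (−1.43 ± 0.35). Of that list 13.6% were higher and 4.55% lower, against 10.7% and 7.77% of all genes tested. Its median was 0.06, and −0.39 with TPM.

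Genes of the p53 response and of cell death were higher in 13 (34.2%) and lower in 2 (5.26%) of 38 tested (median 0.83). Cdkn1a, which encodes the cell cycle inhibitor p21, was at 150.2, 173 and 323 FPKM in KO arrest and 24.3, 4.69 and 6.55 in KO embryo (4.31 ± 0.56, adjusted p = 0.00201), with 13.6 and 30.7 in the control embryos. All KO arrest values were above all 5 other embryo values. Ccng1 was at 90.98, 40.1 and 91.1 against 5.71, 3.88 and 7.26 (3.44 ± 0.43) and Plk2 at 53.97, 19.1 and 16.9 against 0, 0.315 and 2.04 (4.09 ± 0.63). Phlda3, named after its values were seen, was at 15.98, 3.96 and 23.95 in KO arrest and listed at 0 in all KO embryo and control embryo libraries. Of 15 pro-apoptotic genes 7 were higher (46.7%) and none lower, including the mitochondrial pore former Bax (72.4, 77.1 and 118 against 13.6, 9.14 and 6.26, 3.10 ± 0.38, adjusted p = 0.00177), its relative Bok (14.1, 10.5 and 10.8 against 0.983, 0 and 0.191, 3.25 ± 0.50) and the nuclease gene Endog (26.6, 11.6 and 32.9 against 0, 0 and 0.322, 4.37 ± 0.54).

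Other members of the pathway did not follow. Gadd45a was lower (6.68, 1.33 and 2.84 against 31.1, 68.5 and 34.8 FPKM, −3.39 ± 0.53), as was Mdm4, which encodes an inhibitor of p53 (109, 92.03 and 57.9 against 308, 272 and 320.2, −1.83 ± 0.30). None of 5 anti-apoptotic genes was called by limma, nor was any at an unadjusted p under 0.05. Mcl1 was at 62.9, 73.05 and 51.5 against 144, 88.8 and 79.6 (−0.69 ± 0.32, adjusted p = 0.158) and Xiap at 33.7, 22.8 and 8.83 against 26.9, 28.6 and 18.4 (−0.33 ± 0.49). Among DNA damage genes the histone gene H2afx was higher (23.1, 72.2 and 60.7 against 6.55, 2.55 and 3.32, 3.29 ± 0.52) and the checkpoint kinase gene Chek1 was lower (−1.30). Without KO embryo 2 the count of higher members in the p53 and death list was 9.

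**Figure D5:**
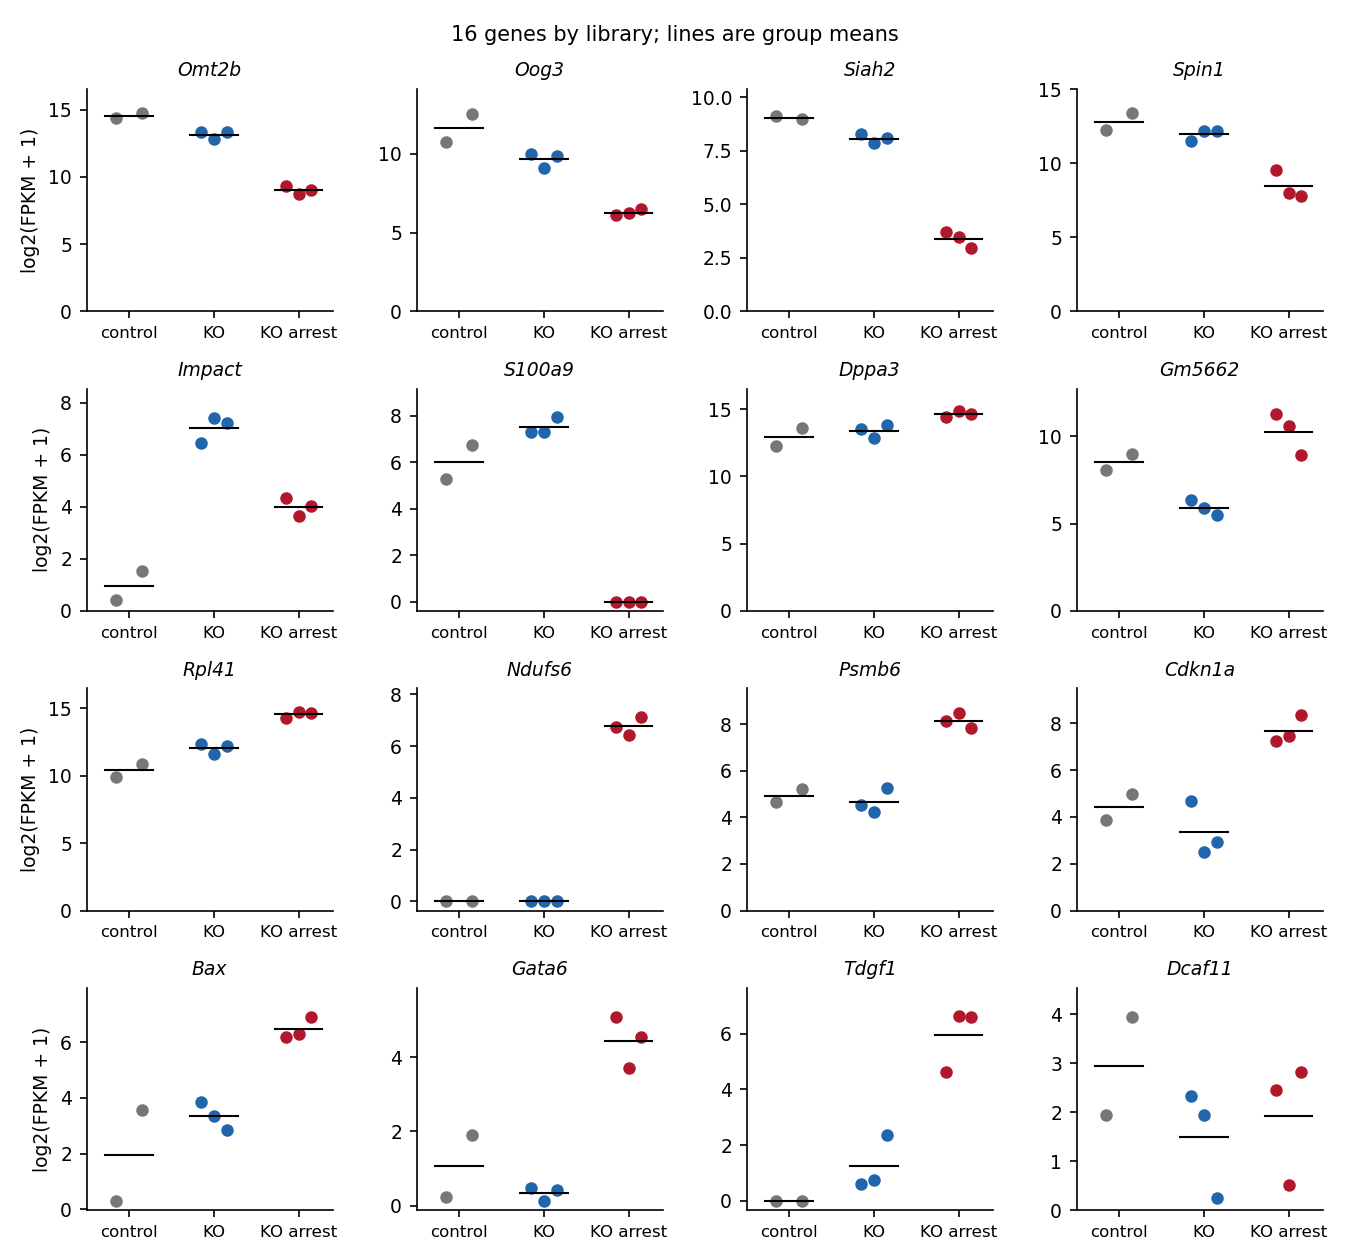
log2(FPKM + 1) of 16 genes in each library, with control embryos (grey, 2 points), KO embryo (blue, 3 points) and KO arrest (red, 3 points) and a line at each group mean. The KO arrest points lie below the KO embryo points for Omt2b, Oog3, Siah2, Spin1, Impact and S100a9, above them for the next 9 genes, and overlap them for Dcaf11.

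Among lineage genes of the later embryo a few were higher in KO arrest. Of 22 pluripotency genes 3 were higher (13.6%) and 1 lower (4.55%), against 10.7% and 7.77% of all genes tested. With TPM 3 were higher and 4 lower. The summed FPKM of the list overlapped between the groups, at 2103, 3451 and 3176 against 3667, 2270.2 and 3522. Tdgf1, a co-receptor gene of Nodal signalling, was at 23.4, 97.04 and 96.7 FPKM against 0.537, 0.670 and 4.14 (4.70 ± 0.68, adjusted p = 0.00305), the transcription factor gene Nanog at 6.40, 4.61 and 10.9 against 0, 0.633 and 0 (2.75 ± 0.52) and Fbxo15 at 399.7, 1120.2 and 887 against 253, 171 and 273 (1.69 ± 0.39). Gbx2 was lower (0.695, 0.519 and 0 against 5.09, 3.86 and 2.94, −1.83 ± 0.48), a call lost without any 1 library other than KO arrest 1. The primitive endoderm factor gene Gata6 was at 32.9, 12.02 and 22.1 against 0.391, 0.0951 and 0.347 (4.09 ± 0.52, adjusted p = 0.00197). Sparc, which is also a matrix gene of fibroblasts, was lower (0.892, 0.870 and 0.655 against 19.5, 18.1 and 25.9, −3.61 ± 0.44), beside the lower fibroblast markers. Id3, a target of BMP signalling, had one of the largest rises (136, 123 and 652 against 1.77, 2.77 and 5.59, 5.77 ± 0.63).

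Of 16 trophectoderm genes tested 3 were higher (18.75%), all for epithelial or transport proteins: the claudin genes Cldn7 (16.6, 36.2 and 50.5 against 4.16, 0 and 3.25 FPKM, 3.53 ± 0.69) and Cldn6 (2.03 ± 0.52) and the water channel gene Aqp9 (134, 92.4 and 94.8 against 26.1, 48.1 and 35.4, 1.55 ± 0.33), the last 2 with FPKM only. The 5 transcription factor genes of that lineage tested were not called by limma (2 were higher at an unadjusted p under 0.05), with Tfap2c at 28.2, 24.9 and 16.4 against 24.2, 27.7 and 26.6 (−0.20 ± 0.34) and Id2 at 14.3, 10.1 and 26.3 against 11.7, 17.7 and 11.9 (0.20 ± 0.44). The polarity genes Pard3 (7.87, 4.74 and 5.41 against 53.3, 44.8 and 37.9, −2.74 ± 0.37) and Pard6b (−1.99 ± 0.46) and the Hippo pathway coactivator gene Yap1 (33.5, 18.9 and 13.1 against 67.7, 64.9 and 62.99, −1.63 ± 0.38) were lower. Yap1 lost its call without any 1 library other than KO arrest 1, and Pard6b without KO arrest 2, KO arrest 3, KO embryo 1 or KO embryo 3. Of the placental prolactin genes Prl3b1 was higher (5.41, 28.8 and 50.1 against 2.64, 0 and 2.75) and Prl8a2 was lower, listed at 0 against 2.98, 2.72 and 4.09. The call of Prl3b1 was lost without any 1 library other than KO arrest 1.

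Imprinted genes transcribed from the paternal chromosome were lower where they changed. Of 9 tested 5 were lower (55.6%) and none higher (median −1.80), and of 6 maternally transcribed genes 1 was higher (16.7%). Impact was at 19.4, 11.5 and 15.2 FPKM in KO arrest, 85.9, 170.3 and 147 in KO embryo and 0.335 and 1.86 in the control embryos (−3.02 ± 0.36, adjusted p = 0.00169). Mcts2 was at 14.5, 4.85 and 9.98 against 111, 89.03 and 80.7, with 0.996 and 2.77 in the controls (−3.23 ± 0.41), and Mest at 0.773, 0.125 and 0 against 18.4, 11.8 and 11.6 (−3.54 ± 0.50). For Impact and Mcts2 the KO embryo libraries were thus the highest of the embryo groups. Tssc4, maternally transcribed, was higher with FPKM only (2.04). Parental alleles cannot be told apart in these values. None of 11 DNA methylation genes was called by limma (1 higher and 3 lower at an unadjusted p under 0.05), but 2 were lower with TPM and 1 was lower with median-of-ratios scaling, with quantile normalization or after removal of the trend with length. Of the 2 most abundant, Dnmt3l (25.1, 9.79 and 11.2 against 21, 9.49 and 11.1) overlapped between the groups, while Mbd3 (17.2, 16.8 and 21.03 against 15.6, 12.4 and 14.02, 0.37 ± 0.35, adjusted p = 0.499) did not overlap but was not called.

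Genes around Dcaf11 and its ligase were mixed. Of 33 genes of the CUL4-DDB1 ligase and the COP9 signalosome 5 were higher and 3 lower (median −0.06, and 0.10 after removal of the trend with length). These were 15.2% and 9.09%, against 10.7% and 7.77% of all genes tested. The scaffold gene Cul4b was lower (16.1, 8.77 and 16.2 against 35.2, 33.9 and 38.98 FPKM, −1.38 ± 0.36) and the receptor gene Dcaf6 was lower (1.02, 1.87 and 2.98 against 10.5, 22.2 and 11.2, −2.38 ± 0.51), while Cops4 (1.57 ± 0.31) and Cops5, the catalytic subunit of the signalosome (61.5, 66.6 and 51.1 against 25.7, 15.9 and 11.5, 1.76 ± 0.37), were higher. Nedd8 (1.28), Dcaf13 (1.02) and Cops6 (1.52) were called only with FPKM, and Gps1 was lower (−1.32). Trim28, the corepressor KAP1, was at 21.5, 19.4 and 23.7 against 35.2, 12.6 and 24.9 (−0.06 ± 0.42, adjusted p = 0.943), so the groups overlapped. Of 20 genes of its heterochromatin pathway Cbx3, the methyltransferase gene Ehmt1 (13.98, 16.2 and 9.97 against 34.1, 48.7 and 35.8, −1.50 ± 0.35) and the imprint protector gene Zfp57 (30.2, 22.9 and 20.7 against 66.6, 97.1 and 49.7, −1.46 ± 0.35) were lower and, with FPKM only, Zfp809 was higher (1.15). That was 15% lower and 5% higher, against 7.77% and 10.7% of all genes tested. Without KO arrest 3, or with the control embryos in the same fit, 1 was lower. Of 21 telomere genes Terf2, a shelterin subunit gene, was higher (13.3, 6.81 and 7.98 against 1.71, 0.517 and 0.373, 2.49 ± 0.53), as was Obfc1 with FPKM only, and Rif1 was lower (146, 128 and 76.1 against 274, 260.5 and 195, −1.09 ± 0.32). Rif1 lost its call without any 1 library other than KO arrest 1. In that list 9.52% were higher and 4.76% lower, against 10.7% and 7.77% of all genes tested.

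The DNA replication and mitosis lists held higher genes at about the share of all genes tested (10.7% higher, 7.77% lower). Of 46 DNA replication genes 5 were higher (10.9%) and none lower, at a median of 0.15 (−0.17 with TPM). The nucleotide synthesis genes Tyms (28.2, 43.3 and 31.04 against 4.66, 1.37 and 5.23 FPKM, 2.98 ± 0.48) and Tk1 (45.9, 60.6 and 80.6 against 5.94, 20.9 and 11.2, 2.33 ± 0.46) were higher, and Gins4 and Rfc2 with FPKM only. Of 63 mitosis genes 7 were higher (11.1%) and 4 lower (6.35%), 3 and 12 with TPM. Cyclin B1 (Ccnb1) was at 654, 1051 and 1347 against 297, 239 and 353 (1.73 ± 0.32) and the ubiquitin-conjugating enzyme Ube2c of the anaphase-promoting complex at 456, 633 and 817 against 239, 157 and 171 (1.73 ± 0.30). Anapc11 was higher too (1.87 ± 0.33), Cdc20 and the abundant Cks2 with FPKM only. The oocyte kinase gene Wee2 (17.7, 4.17 and 4.15 against 30.1, 46.6 and 38.8, −2.30 ± 0.54) and Fzr1, the other activator of that complex (6.85, 3.83 and 8.25 against 40.8, 27.2 and 45.3, −2.43 ± 0.41), were lower, as were Cdca8 (−1.15) and Cenpf (−1.37). Of 59 histone genes 9 were higher (15.3%) and none lower (median 0.93). Hist1h4d was at 284, 509 and 545 against 7.58, 8.19 and 32.6 (4.96 ± 0.53), Hist1h1b at 28.6, 40.05 and 57.3 against 5.36, 3.21 and 5.74 (2.87 ± 0.41) and the variant gene H3f3a at 684, 806 and 1168 against 255, 189.7 and 175 (2.08 ± 0.29). Replication-dependent histone mRNAs largely lack a poly(A) tail, which this method selects, and have near-identical copies, so their levels are uncertain.

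Metabolic genes were higher more often than lower. In glycolysis and the TCA cycle 7 of 31 were higher (22.6%) and 1 lower (3.23%), with a median of 0.86. Aldoa was at 54, 36.3 and 41.3 FPKM against 4.67, 5.08 and 13 (2.50 ± 0.44), Eno1 was higher by 2.74 ± 0.54 and Pgam1 by 1.65 ± 0.32, and the TCA cycle genes Suclg1 (3.43 ± 0.64), Idh3b (2.15 ± 0.46) and Mdh2 (228, 178 and 197 against 50.8, 54.9 and 101, 1.59 ± 0.32) were higher. Ldhb, the lactate dehydrogenase form of oocytes, was lower (20.9, 19.1 and 15.6 against 44.1, 39.7 and 68.1, −1.37 ± 0.34). Of 20 cholesterol genes 4 were higher (20%), with Sc4mol at 53.8, 48.2 and 27.98 against 3.74, 0.296 and 3.73 (3.80 ± 0.58) and Pmvk (3.09 ± 0.64), and Insig1, the brake on sterol synthesis, was lower (145, 71.1 and 41.5 against 564, 1088 and 482, −3.13 ± 0.47). Of 38 autophagy and lysosome genes 10 were higher (26.3%) and none lower, against 5 and 2 with TPM. After removal of the trend with length 9 were higher and 3 lower, and without KO arrest 2 or 3 the count of higher genes was 6. The autophagosome genes Map1lc3a (273, 319 and 454 against 59.2, 67.8 and 65.96, 2.39 ± 0.28) and Gabarapl2 (1357, 1799.9 and 1868 against 427, 266 and 442, 2.16 ± 0.29) and the lysosomal genes Ctsd (2.69 ± 0.49), Ctsl (1.38 ± 0.30) and Lamp2 (251, 441 and 278 against 92.7, 98.3 and 95.9, 1.70 ± 0.29) were among them. The proton pump gene Atp6v1f was at 221, 252 and 464 against 7.42, 20.3 and 2.49 (5.12 ± 0.60).

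The remaining large rises belonged to genes of other functions. The purine salvage gene Hprt was at 3836, 5105 and 4634 FPKM against 762, 399 and 867 (2.81 ± 0.33, adjusted p = 0.00169) and the polyamine catabolism gene Sat1 at 3743, 4799.9 and 4559.5 against 737, 552 and 666 (2.75 ± 0.25, adjusted p = 0.00106). Gcsh of glycine cleavage was at 3031, 3046 and 3932 against 1602, 1133 and 1434 (1.27 ± 0.26) and Prps1, which makes the nucleotide precursor PRPP, at 2533, 2332 and 2276 against 1433, 738 and 1408 (1.06 ± 0.31, with FPKM only). Dynap (106, 124 and 62.5 against 0, 0.495 and 10.3, 5.20 ± 0.81), the nucleoside diphosphate kinase gene Nme4 (87.8, 41.7 and 87.6 against 2.96, 0 and 1.02, 5.12 ± 0.57) and the complex I gene Ndufa3 (56.6, 144 and 97.7 against 0, 0 and 8.11, 5.49 ± 0.82) were among the 12 largest rises. Of the systematic names 1700007K13Rik rose most (62.1, 21.1 and 21.8 against 0, 0 and 0). Rmrp, the RNA of RNase MRP, was lower (1.39, 0 and 0 against 18.8, 16 and 35.7, −4.11 ± 0.56), and so was the beta globin gene Hbb-bs, listed at 0 in KO arrest. In all, 33 higher genes were listed at 0 in all 3 KO embryo libraries and 76 lower genes in all 3 KO arrest libraries. Of the lists given above as without a lower member, at an unadjusted p under 0.05 in limma 2 respiratory chain, 3 autophagy and lysosome, 1 DNA replication and 1 histone gene were lower, and no gene for cytosolic or mitochondrial ribosomal proteins, antioxidant enzymes, RNA polymerase II, trophectoderm or pro-apoptotic proteins was. With TPM 2 genes each of the mitochondrial ribosomal protein, respiratory chain, autophagy and lysosome, and DNA replication lists and 1 histone gene were called lower. Without KO arrest 2 the counts of higher genes were 5 for histones, 3 for mitosis and 1 each for cholesterol and RNA polymerase II, and that of lower m6A genes was 2. Without KO arrest 3 the counts of higher genes were 2 each for DNA replication and the CUL4-DDB1 and COP9 list and 0 for the stress responses.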

How the data were processed

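Each library has 1 deposited file that gives, per the file headers, a coverage (signal), an FPKM and a TPM value for every gene. The submitters' processing notes name STAR (0.6.0), StringTie, DESeq2 and the build mm9. The sources used here do not give the step that each tool did or the annotation. Whether counting used strand is not stated either, and reads of overlapping genes cannot be told apart. The authors' FPKM values are not counts and were tested on a log scale. The authors' TPM column equals FPKM times 1 factor per library, 1.78 to 2.06 in KO arrest and 2.53 to 2.77 in KO embryo. The deposited coverage served to give relative depth, and no counting interval could be given.

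FPKM was summed per symbol (46 or 47 symbols had several loci), and rows without a gene name, 0.629% to 0.889% of FPKM, were dropped. Genes with an FPKM of at least 1 in at least 2 of the 6 libraries were kept, 11007 of 22619 symbols. The 3 KO arrest libraries were tested against the 3 KO embryo libraries with limma 3.58.1 in R 4.3.3 on log2(FPKM + 1), with a variance trend on the mean, 4 residual degrees of freedom and Benjamini-Hochberg adjustment at 0.05. The pseudocount of 1 understates changes of low genes. The script was tested on simulated data.

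The genes named are Dcaf11, Trim28, the Zscan4 family and, among called genes without overlap between the groups, the 12 largest rises and falls and the 8 most abundant of each direction, with systematic names ranked apart. Each role of a list adds up to 3 called genes per direction by p, or the 2 most abundant where none was called. The comparison, the lists and these rules were chosen with earlier results of these data known. The bone genes, Lcn2, Chi3l3, Retnlg, Ppbp, Phlda3, Rpl39, Pou5f1, Dppa5a, Zp3 and Ooep were named after their values were seen. A few called genes are not reported here.

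Transcript lengths (99.1% of genes tested) came from a GRCm38 annotation and promoter windows from RefSeq (GRCm38.p6), both matched by symbol; neither is of the build of the files. Alternatives were another pseudocount, other filters and a minimum fold, TPM, 2 further scalings, library weights, fits with more libraries, a replicate block, removal of the trend with length and leaving out each library. Tables and figures were made in Python 3.11.15 with pandas 2.3.3, numpy 2.4.6 and matplotlib 3.10.9.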

Additional observations from a re-analysis of the deposited data

How the results depend on the processing

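No gene called in the comparison changed sign under the alternatives run. Against 2030 calls (1175 higher, 855 lower), there were 1155 (633 higher, 522 lower) with no filter on low values and 1085 (619 higher, 466 lower) with the control embryos in the same fit. With TPM 754 were higher and 1359 lower, 35.7% of calls higher. Leaving out each library in turn gave 1119 to 1906 calls, 685 to 1022 higher and 424 to 884 lower. Of 234 called genes picked for naming, 175 to 214 were then still called. Among those lost, Chek1 and Cenpf lost their calls without any 1 library other than KO arrest 1. Prps1, Gps1 and Dmp1 lost theirs without any 1 library. The other settings gave 1674 to 2497 calls, among them 1835 with a pseudocount of 0.1, 2060 with a minimum of 5 FPKM, 2046 with median-of-ratios scaling, 2074 with quantile normalization (994 higher, 1080 lower, with the median of all genes moved by −0.12), 2280 with all 12 libraries in the fit, 2497 with weights per library, 2014 with a log2 difference of at least 1 and 1850 without the trend with length. Replicate numbers occur in both groups, but the deviations of same-numbered libraries from their group means correlated at −0.05, −0.02 and 0.02. Not every library correlated best with its own number. The titles do not say what the number stands for, and with 3 libraries per group these correlations cannot show whether libraries of the same number were paired. With a replicate block 1674 genes were called. Apart from the filters, which change the genes tested, and the smaller fits, the cause of these differences was not tested. Depth in reads is unknown, so a gene listed at 0 may be undetected, and with 3 libraries per group small differences could not be called.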

Other observations

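Of 416 X-linked genes tested 67 were higher in KO arrest (16.1%, against 10.7% of all genes tested) and 25 lower (6.01%, against 7.77%). Their median log2 difference was 0.47, against 0.10 for all genes. The abundant genes Hprt, Sat1 and Prps1, the ribosomal protein genes Rpl39 and Rps4x, and Eif1ax, Timm8a1 and Lamp2 are X-linked higher genes. Rpl39 was at 832, 1710.2 and 1622 FPKM in KO arrest and 343, 180 and 221 in KO embryo (2.46 ± 0.36, adjusted p = 0.00323). Chromosome 17 came next, with 77 of 541 genes higher (14.2%, median 0.29), and the medians of the other autosomes lay between −0.12 and 0.18. The split by chromosome was made after the values were seen and was not tested.

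The blood cell genes Lcn2, Chi3l3, Retnlg and Ppbp and the bone gene Dmp1 were listed at 0 in each KO arrest library and were lower there. Lcn2, a neutrophil granule gene, was at 5.63, 4.17 and 9.72 FPKM in KO embryo and 1.05 and 3.14 in the control embryos. Ppbp, a platelet chemokine gene, was at 4.02, 3.44 and 6.15 and 0.735 and 2.25. Retnlg was at 1.85, 2.61 and 6.37 in KO embryo, Chi3l3 at 4.76, 7.61 and 9.10 and Dmp1 at 1.24, 1.98 and 1.67. The source of these transcripts was not tested.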
